A study of Rattus norvegicus with 4 samples.

Results

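The comparison covered liver RNA of wild type rats after 6 h of inhalational anesthesia against liver RNA of rats killed at the loss of consciousness, with both anesthetic agents pooled. All 4 libraries of the series entered it, 2 at 6 h and 2 at 0 h, with 1 library for each agent at each time. Animals received sevoflurane at 4.5% or desflurane at 6%, and the controls breathed the same agent only until consciousness was lost, so that every group, controls included, had met an agent and was killed by decapitation. Strain, sex, age and the number of rats behind a library were not stated for these libraries. The series states that control and anesthetized rats were harvested 6 h apart in the day, so hours of anesthesia, time of day and time since a meal cannot be told apart in any difference below. Whether libraries of a group came from separate rats was not stated either. Each p-value sets the mean change against the difference between the agents' changes, which may be technical. That spread was moderated toward genes of like level, with a prior of 10.9 degrees of freedom against 1 of the gene itself. Aligned sequence came to 3.50 Gb in the sevoflurane control and to between 5.29 and 5.57 Gb in the other libraries, so low levels were least precise in that control.

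The liver carries out much of its work in daily cycles. A molecular clock of activators (Arntl and Clock) and repressors (the Per, Cry and Nr1d families) sets the hour of many metabolic genes, and feeding, insulin, glucagon and glucocorticoids set others. In a fed liver, insulin favors glucose uptake, glycogen and lipid synthesis, while in a fasting liver, glucagon and glucocorticoids favor amino acid breakdown, urea and glucose output. Volatile anesthetics also pass through the drug-metabolizing system, in which the receptors CAR (Nr1i3) and PXR (Nr1i2) turn on cytochrome P450 genes.

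Values are deposited TPM (transcripts scaled to a common library total, a level per transcript length), and changes are differences of log2(TPM + 1), 6 h minus 0 h, fitted by limma with the agent as a block and given with the moderated standard error (n = 2 libraries a side). Adding 1 to each TPM understates the change of low genes. Of 16999 named genes, 8024 had a mean TPM of at least 2 and were tested. At an adjusted p under 0.05, 376 genes were higher at 6 h (4.69% of those tested) and 316 were lower (3.94%), together 8.62%. An unadjusted p under 0.05 in limma was reached by 1599 of the 8024, both directions together. List counts below are to be read against these shares over all genes. The 376 higher genes had a median change of 1.11, and 53 of them changed by at least 2 on the log2 scale. Among the 316 lower genes, 23 changed by that much, and the median size was 0.94. Summed over the called genes, TPM of the higher set went from 21529 to 50999 and that of the lower set from 33419 to 18953, as means of each time. Each called gene changed in the same direction with both agents, which the test itself favors, and 63.2% of all genes tested did so. A stricter description asked that the lowest 6 h library lie at least 2-fold above the highest control in TPM + 1, or the reverse, which is more than 2-fold in TPM. It held for 123 higher genes (1.53%) and 58 lower genes (0.723%), each of them also called by limma. Mere absence of overlap between the groups is common with 2 libraries a side: 51.0% of all genes tested had it.

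Time accounted for 69.4% of the summed squared differences between the libraries in log2(TPM + 1), the agent for 14.9% and the agent-by-time term for 15.7%. Over all genes tested the median change was -0.03, being 0.05 with sevoflurane and -0.10 with desflurane. Control libraries differed from each other by over 1 on the log2 scale in 26 of the called genes, 23 of them higher and 3 lower. Agents' own changes differed by over 1 in 48 of the higher and 33 of the lower genes. With each library left out in turn, 133 calls remained throughout, 93 higher and 40 lower. Without the sevoflurane control 106 genes were higher and 57 lower, without the desflurane control 188 and 95, and without desflurane at 6 h 228 and 183. Counts therefore rested on each of these libraries. For most lists below, the calls that remained throughout are given. A call without such a statement may have been lost with a library left out.

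**Figure D1:**
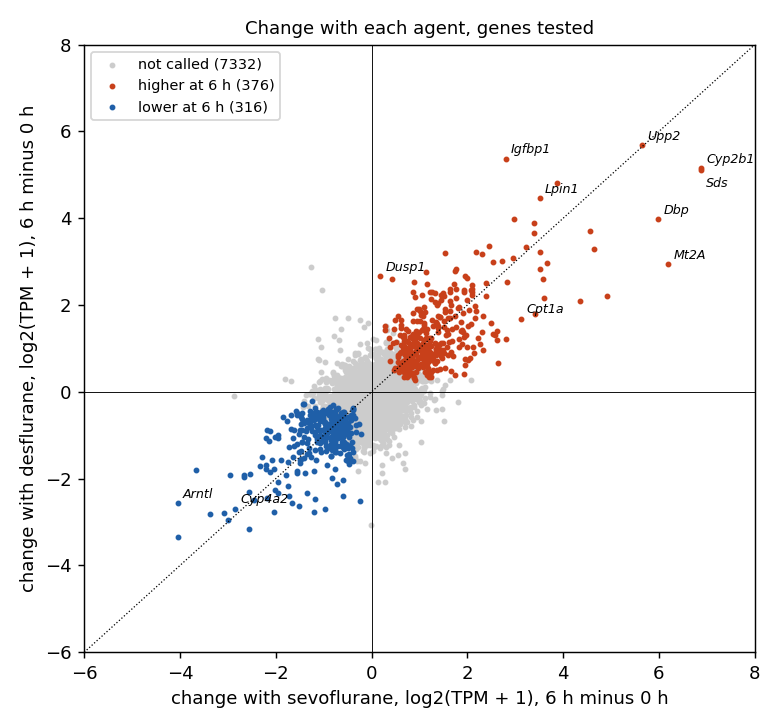
Change with sevoflurane (x axis) against change with desflurane (y axis), both in log2(TPM + 1), 6 h minus 0 h, for the 8024 genes tested, red for the 376 called higher, blue for the 316 called lower and grey for the rest; the dotted line marks equal changes. Called genes lie at the upper right and lower left, and Upp2 lies near the dotted line while Mt2A lies to the right of it.

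Among the higher genes, Upp2, a uridine phosphorylase that breaks down pyrimidine nucleosides, had the lowest p. It stood at 2.74 TPM in the sevoflurane control and 5.83 TPM in the desflurane control, and at 186 and 351 TPM after 6 h in the same order, which all later pairs keep. Its change was 5.67 ± 0.16 (adjusted p = 1.3e-09), and its gene lies at chromosome 3, 44806106 to 44846464, in the deposited coordinates (rn6 in the submitters' notes). Got1 (chromosome 1, 263246248 to 263269762), the cytosolic aspartate aminotransferase, rose from 18.5 and 15.5 to 203 and 207 TPM, a change of 3.52 ± 0.15. Both 6 h libraries lay about an order of magnitude above both controls. Edem1, which passes misfolded glycoproteins on for degradation, had nearly equal controls of 66.2 and 67.2 TPM and rose to 444 and 552 TPM (2.87 ± 0.13). Mfsd2a, a carrier of lysophospholipids, differed between the controls (10.9 and 35.2 TPM) and reached 149 and 281 TPM, so its groups stayed apart. Zfp354a, a zinc finger protein, rose from 5.18 and 16.8 to 152 and 174 TPM. Each of these calls remained with any library left out.

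Cyp4a2, a fatty acid omega-hydroxylase on chromosome 5 at 134196910 to 134207863, led the lower genes. Its level was 558 and 1075 TPM in the controls and 76.9 and 165 TPM at 6 h, a change of -2.77 ± 0.12 (adjusted p = 6.7e-08). Cyp4a3 followed with 503 and 966 against 91.0 and 170 TPM, and the pair is so alike in sequence that reads may have been shared, which makes their separate values uncertain. Osgin1, a growth inhibitor that responds to oxidative stress, fell by 2.98 on the log2 scale, from 91.4 and 67.0 to 10.5 and 7.73 TPM. Tubb2a, a beta-tubulin, went from 81.7 and 71.1 to 13.1 and 13.6 TPM, with tight values on both sides. The transcriptional regulators Tsc22d1 and Id2 had changes of -1.95 and -2.32, and S1pr1, a receptor for sphingosine 1-phosphate, one of -2.14. Gimd1, Dipk2a, Slc34a2 (a phosphate carrier) and Mid1ip1 (a partner of the lipogenic regulator Thrsp) fell as well, with changes from -2.32 to -3.10.

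**Figure D2:**
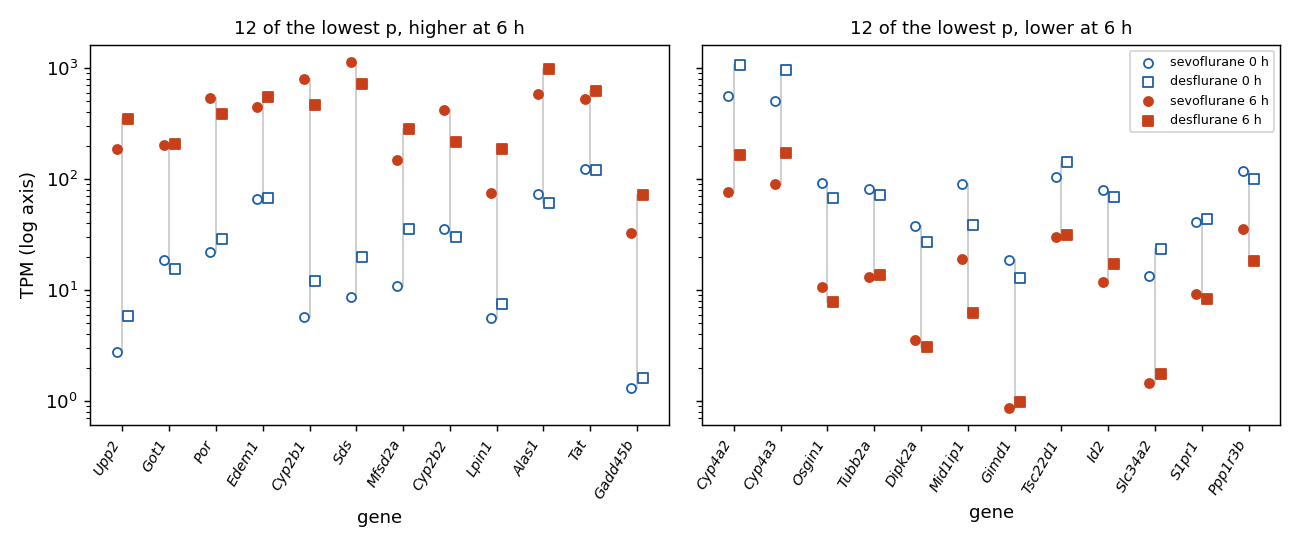
TPM (log axis) in each library for 12 genes with the lowest p in each direction, among those reported here, open symbols for 0 h and filled symbols for 6 h, circles for sevoflurane and squares for desflurane. For each gene shown, both 6 h libraries lie on the same side of both controls, as with Osgin1 at 10.5 and 7.73 TPM against 91.4 and 67.0 TPM.

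Clock genes made up the list with the largest median. Of 11 measured genes that peak late in the light phase, 9 rose and none fell, with a median change of 2.01, and 7 of the calls remained with any library left out. All 11 had an unadjusted p under 0.05 in limma, each in the higher direction. Dbp, a clock output that binds D-box elements, was at 0.400 and 1.92 TPM at 0 h and at 87.9 and 44.8 TPM at 6 h (4.98 ± 0.36). Ciart, a repressor of the clock, was listed at 0 in the sevoflurane control and at 0.241 TPM in the other, and reached 9.46 and 17.5 TPM. Usp2, a deubiquitinase under clock control, rose by 3.28, and the repressors Per1, Per3 and Nr1d2 rose by 2.29, 2.60 and 1.83. Of 4 measured genes that peak around lights on, 2 fell, and the list median was -0.63. Arntl, whose protein pairs with Clock to bind E-boxes, fell from 22.6 and 17.6 to 0.426 and 2.14 TPM (-3.31 ± 0.31). Clock itself had 8.73 and 8.83 TPM against 3.80 and 5.41 TPM (-0.82 ± 0.23, adjusted p = 0.045), a call that was lost in 6 of 12 settings other than leaving out libraries.

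The clock pair acts through the E-box, CACGTG, and promoters were searched for it on both strands. RefSeq promoters (build GRCr8, which is not the build of the deposited coordinates) were matched for 6671 of the tested genes, and the 250 bases before the start were used. CACGTG was present in 8.90% of all of them, in 13.3% of those of the higher genes (41 of 308) and in 5.99% of those of the lower genes (16 of 267). Among the 10 promoters of the late light list, 3 held it. The D-box TTANGTAA was present in 1.32% of all promoters, in 1.30% of the higher and in 0.375% of the lower. A match describes the letters only. Ciart is shown because its promoter (chr2:186112247-186112496, minus strand) held 3 E-boxes, in capitals, which began 93, 35 and 21 bases before the start.
Ciart: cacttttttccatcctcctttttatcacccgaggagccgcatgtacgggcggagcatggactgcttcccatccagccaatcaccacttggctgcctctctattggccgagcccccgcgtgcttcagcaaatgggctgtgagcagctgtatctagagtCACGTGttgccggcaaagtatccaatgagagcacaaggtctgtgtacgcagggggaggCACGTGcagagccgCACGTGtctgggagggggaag

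Drug-metabolizing genes rose in part. Of 27 measured genes of the xenobiotic response, 9 rose, none fell and the median was 0.23, against 4.69% higher among all genes tested, and 5 of the 9 calls remained with any library left out. At an unadjusted p under 0.05, limma put 12 higher and 1 lower. Cyp2b1, the classic CAR-induced monooxygenase, was at 5.72 and 12.1 TPM at 0 h and at 790 and 465 TPM at 6 h (6.02 ± 0.29, the largest rise of any called gene). The deposited tables place Cyp2b1 at chromosome 7, 99158102 to 99181774, and Cyp2b2, near-identical in sequence, on chromosome 1, whereas RefSeq (GRCr8) has both on chromosome 1. Cyp2b2 rose from 35.5 and 29.8 to 418 and 217 TPM, and reads of the pair may have been divided between them. Por, the reductase that passes electrons to every microsomal P450, rose from 21.8 and 28.6 to 538 and 386 TPM (4.14 ± 0.18). Alas1, the first and rate-limiting enzyme of heme synthesis, was at 73.5 and 60.9 TPM against 582 and 979 TPM. It was the 1 of 12 measured genes in the heme list that passed. Alas2, listed with the red blood cell markers instead, rose by 1.01 ± 0.25. PXR itself (Nr1i2) rose by 1.64 ± 0.16, Cyp3a23/3a1 by 1.52 and the drug exporter Abcb1a by 1.91.

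Other families of drug metabolism split or moved little. Among 46 measured cytochromes P450, 10 were higher and 5 lower (21.7% and 10.9%, against 4.69% and 3.94% over all genes tested). Of these calls 4 remained throughout (Cyp2b1, Cyp2b2, Cyp4a2 and Cyp4a3). Cyp2e1 rose from 543 and 610 to 1015 and 1364 TPM, and Cyp1a2, which oxidizes caffeine, rose by 0.68. All 8 called glucuronosyltransferases of 16 measured belonged to the Ugt1a cluster, whose first exons are spliced to shared exons. Apart from Ugt1a1, their TPM values were close to equal within each library, as with 158 TPM for Ugt1a2, 159 for Ugt1a3 and 158 for Ugt1a9 in the sevoflurane control, so these do not count as separate measurements. None of these 8 calls remained with every library left out in turn. Ugt1a1, which conjugates bilirubin, had 217 and 254 TPM against 362 and 397 TPM. Among 9 sulfotransferases, Sult1b1 rose by 0.59, and Sult1e1 and Sult2a6 fell by 0.48 and 0.84. None of these 3 calls remained throughout. Only Gstk1 among 23 glutathione transferases passed (0.51 ± 0.14), a share of 4.35% higher. Of 28 ABC transporters, 3 rose (Abcb1a, Abcb1b and Abcg5) and Abcg3 fell by 0.96. These are 10.7% higher and 3.57% lower, against 4.69% and 3.94% over all genes tested. None of the 4 calls remained throughout.

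Amino acid breakdown and ammonia disposal rose in selected steps. Of 42 measured catabolic enzymes, 9 rose and 4 fell (21.4% and 9.52%, against 4.69% and 3.94% over all genes tested). The median was 0.01, and 7 of these calls remained throughout. Sds, which deaminates serine to pyruvate, went from 8.66 and 19.8 to 1136 and 714 TPM (5.99 ± 0.29). Tat and Tdo2 start the breakdown of tyrosine and tryptophan. Tat rose from 123 and 119 to 529 and 623 TPM, and Tdo2 from 565 and 422 to 1766 and 2093 TPM. Mat1a, which makes S-adenosylmethionine, rose by 1.81, and Oat, which takes ornithine toward glutamate, by 1.51. In the opposite direction, Cth, the last enzyme of cysteine synthesis, fell from 516 and 329 to 113 and 179 TPM (-1.53 ± 0.22).

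In the urea cycle list, 5 of 9 measured genes rose and none fell (median 0.58), and 4 of the 5 calls remained throughout. Asl, which releases arginine, had 101 and 130 TPM at 0 h and 380 and 459 TPM at 6 h (1.85 ± 0.12). The mitochondrial ornithine carrier Slc25a15 rose by 1.47, arginase (Arg1) by 1.30 and Ass1 by 1.10. Cps1, the entry enzyme of the cycle, rose least, from 1072 and 909 to 1677 and 1298 TPM (0.58 ± 0.11), and this call was lost with a library left out. Of 15 measured amino acid transporters, which bring them into the cell, 7 rose and none fell (median 0.43), and the calls of Slc38a2 and Slc7a2 remained throughout. At an unadjusted p under 0.05, limma put 8 transporters higher and 1 lower, and in the urea cycle list 5 higher and 1 lower. Slc7a2, which carries cationic amino acids, went from 52.1 and 63.6 to 235 and 210 TPM, and Slc38a2, a carrier of neutral ones, from 14.7 and 18.0 to 61.8 and 116 TPM.

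Of 27 measured mitochondrial carriers of the Slc25 family, 9 rose and 2 fell (median 0.28), and 4 calls remained throughout. Slc25a32, which brings folate into mitochondria, had 6.21 and 8.36 TPM in controls and 54.5 and 78.7 TPM at 6 h (3.02 ± 0.17). Slc25a25, a calcium-regulated exchanger of adenine nucleotides, rose by 1.86. Slc25a33, a pyrimidine nucleotide carrier, rose from 4.68 and 5.69 to 20.6 and 33.2 TPM (2.14 ± 0.21). Slc25a47, a carrier found mainly in liver, was at 238 and 720 TPM after 6 h, so its level differed between the agents. The promoter of Slc25a33 (chr5:165502974-165503223, minus strand) is shown because it held both an E-box and a cAMP response element, TGACGTCA, in capitals, which began 61 and 84 bases before the start.
Slc25a33: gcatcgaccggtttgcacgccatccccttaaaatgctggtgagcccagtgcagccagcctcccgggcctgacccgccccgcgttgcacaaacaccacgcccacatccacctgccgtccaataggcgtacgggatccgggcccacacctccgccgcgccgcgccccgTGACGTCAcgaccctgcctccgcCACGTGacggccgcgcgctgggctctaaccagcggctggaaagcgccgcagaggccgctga

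Part of the genes of glucose output rose. Of 12 measured genes of gluconeogenesis and its activators, 7 rose, none fell and 5 were not called (median 0.91), and Klf15, Sik1 and Slc2a2 kept their calls with any library left out. Pck1, which commits oxaloacetate to glucose, went from 527 and 942 to 1497 and 1762 TPM (1.20 ± 0.14). Slc2a2, the hepatocyte glucose transporter, rose by 1.13, and Slc37a4, which carries glucose 6-phosphate into the endoplasmic reticulum, by 0.86. The coactivator Ppargc1a was at 0.0255 and 0.412 TPM at 0 h and at 2.48 and 9.09 TPM at 6 h (2.30 ± 0.29), low in all libraries. Klf15, which drives amino acid catabolic genes, rose from 12.7 and 14.3 to 49.7 and 39.9 TPM, and Sik1, a kinase induced by cAMP, rose by 1.76. Glycogen genes split: glycogen synthase (Gys2) rose from 23.2 and 19.2 to 74.1 and 103 TPM. Ppp1r3b, a glycogen-targeting subunit of a phosphatase that activates the synthase, fell from 118 and 100 to 35.3 and 18.2 TPM. Ppp1r3c, another glycogen-targeting subunit, rose by 0.80 and the branching enzyme Gbe1 fell by 0.56. Unadjusted p under 0.05 was reached by 8 higher and 1 lower gene of the gluconeogenesis list in limma. Of the glycogen calls only that of Gys2 remained throughout.

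The promoters of Ppargc1a (chr14:63634058-63634307, plus strand) and Klf15 (chr4:124522765-124523014, plus strand) are shown because the first held a cAMP response element, beginning 181 bases before the start, and the second an E-box, beginning 101 bases before it. TGACGTCA was present in 3.24% of all promoters, in 3.90% of those of the higher genes and in 2.25% of those of the lower genes. The glucocorticoid response element, searched as a full palindrome, was present in 0 of the 6671 promoters, and the element bound by Ror and Nr1d proteins in 12, none of them of a called gene.
Ppargc1a: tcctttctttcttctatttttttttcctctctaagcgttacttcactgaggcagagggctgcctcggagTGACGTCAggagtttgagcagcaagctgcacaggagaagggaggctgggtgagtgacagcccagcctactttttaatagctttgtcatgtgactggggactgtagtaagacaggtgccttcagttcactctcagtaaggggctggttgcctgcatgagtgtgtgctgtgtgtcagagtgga
Klf15: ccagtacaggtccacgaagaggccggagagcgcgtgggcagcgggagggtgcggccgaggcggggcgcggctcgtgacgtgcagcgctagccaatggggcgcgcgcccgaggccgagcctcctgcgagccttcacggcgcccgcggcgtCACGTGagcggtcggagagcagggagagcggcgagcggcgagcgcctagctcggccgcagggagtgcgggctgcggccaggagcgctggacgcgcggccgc

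**Figure D3:**
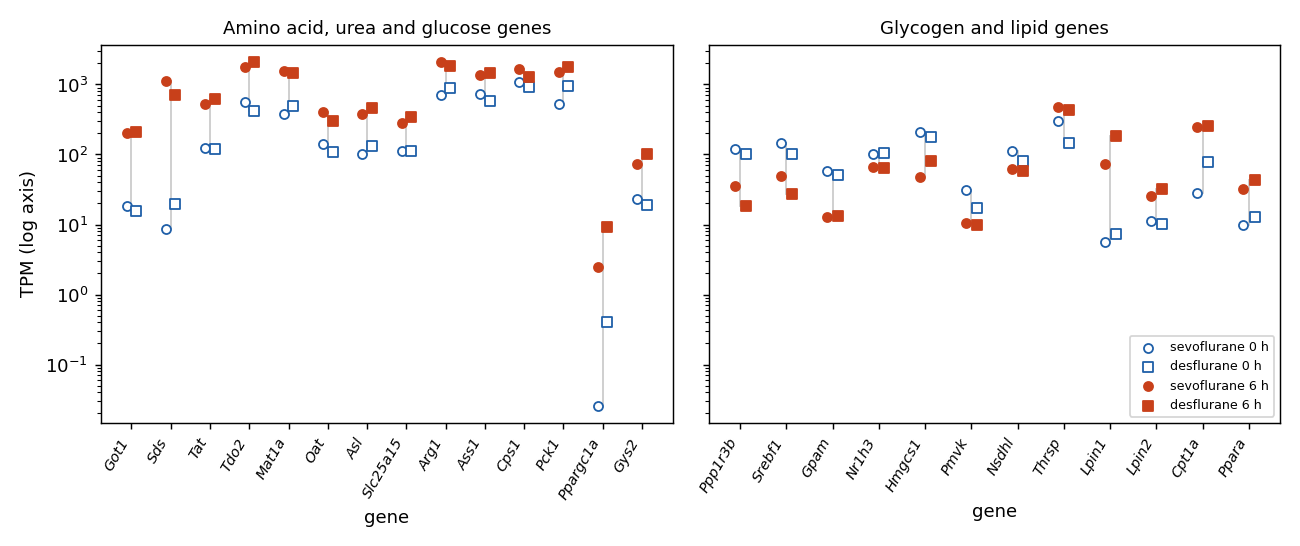
TPM (log axis) in each library, open symbols for 0 h and filled symbols for 6 h, circles for sevoflurane and squares for desflurane. On the left are 14 genes of amino acid breakdown, urea and glucose metabolism, with glycogen synthase (Gys2) among them. On the right are 12 genes of glycogen and lipid metabolism. Filled symbols lie above open ones throughout the left panel, and in the right panel they lie below for Srebf1, Gpam and Hmgcs1 and above for Lpin1, Lpin2, Cpt1a and Ppara.

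Lipid genes moved in both directions. Of 22 measured genes of fatty acid and triglyceride synthesis, 4 rose and 4 fell, and the calls of Gpam, Lpin1 and Lpin2 remained throughout. Srebf1, the insulin-responsive activator of lipogenesis, fell from 146 and 102 to 48.6 and 27.1 TPM (-1.72 ± 0.15). Gpam, which takes the first step of glycerolipid synthesis, fell from 59.0 and 50.2 to 12.8 and 13.3 TPM. Nr1h3, a sterol receptor that turns on Srebf1, had 101 and 104 TPM against 66.2 and 64.3 TPM. Against these, Lpin1, a phosphatidate phosphatase that also coactivates oxidation genes, rose from 5.58 and 7.43 to 74.0 and 186 TPM (3.99 ± 0.21), and Lpin2 rose by 1.34. Thrsp, a lipogenic protein whose controls differed (305 and 148 TPM), rose by 1.07 ± 0.18 to 469 and 429 TPM.

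Of 28 measured genes of fatty acid oxidation and ketogenesis, 3 rose and none fell (4 and 2 at an unadjusted p under 0.05 in limma). Cpt1a, the gate of mitochondrial oxidation, went from 27.9 and 77.6 to 250 and 251 TPM (2.40 ± 0.25), and its call remained throughout. The receptor PPAR alpha (Ppara) rose from 9.70 and 12.7 to 32.1 and 43.6 TPM (1.66 ± 0.18). In the list of its targets outside oxidation, which holds Ppara itself, 4 of 16 members fell (Cyp4a2, Cyp4a3, Angptl4 and Plin2) and 2 rose. The calls of Cyp4a2, Cyp4a3 and Ppara remained throughout. Plin2, which coats lipid droplets, had 199 and 270 TPM in controls and 86.6 and 209 TPM at 6 h, with the 6 h desflurane library above the sevoflurane control. In cholesterol synthesis 6 of 26 genes fell and 2 rose (median -0.36), and none of the 8 calls remained throughout. The list median was -0.65 with sevoflurane and -0.05 with desflurane, and summed TPM went from 1810 to 1026 with the first and from 1297 to 1440 with the second. Hmgcs1 fell from 212 and 175 to 47.5 and 79.9 TPM (-1.63 ± 0.20). Pmvk, Mvd and Nsdhl fell by between 0.67 and 1.10. Among 21 bile acid genes, 4 rose and 2 fell (19.05% and 9.52%, against 4.69% and 3.94% over all genes tested). Only the call of Baat remained throughout. Cyp7a1, the rate-limiting enzyme of bile acid synthesis, was at 41.2 and 31.4 TPM against 186 and 59.1 TPM (1.52 ± 0.23), while Baat, which conjugates bile acids, fell from 1077 and 1153 to 508 and 459 TPM.

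Genes that the glucocorticoid receptor drives gave 14 higher and 3 lower of 23 measured (median 1.42), and 7 of the calls remained throughout. Some members, such as Tat, Per1, Pck1 and Sds, also stand in lists above. Klf9, a direct target of the receptor, rose from 10.2 and 11.7 to 46.8 and 61.5 TPM (2.19 ± 0.17). Igfbp1, which binds IGF and rises when insulin is low, went from 5.29 and 2.74 to 42.7 and 154 TPM. The metallothioneins Mt1 and Mt2A, which bind zinc, differed by over 1 on the log2 scale between the controls, as 0.885% of all genes tested did. Mt2A was at 6.98 and 123 TPM at 0 h and at 580 and 948 TPM at 6 h (4.56 ± 0.49), and Mt1 at 13.2 and 140 TPM against 424 and 650 TPM. Neither kept its call with every library left out in turn. The receptor gene itself, Nr3c1, had 52.2 and 36.4 TPM against 28.4 and 24.9 TPM (-0.69 ± 0.16).

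Of 8 measured Kruppel-like factors, 5 rose and none fell (median 1.21). Besides Klf9 and Klf15 these were Klf10, Klf13 and Klf16, which rose by 1.13, 1.29 and 1.46. The calls of Klf10 and Klf13 were lost with a library left out. Among 19 immediate early genes, 9 rose and 2 fell, and the list median was 0.17 with sevoflurane and 1.30 with desflurane. Gadd45b, a stress-induced adaptor, went from 1.31 and 1.60 to 32.8 and 72.5 TPM (4.35 ± 0.25). Maff, Zfp36 and Jun rose by 2.37, 1.80 and 1.79, and only Gadd45b and Zfp36 kept their calls throughout. Dusp1, a MAP kinase phosphatase, had 24.9 and 10.7 TPM at 0 h and 28.2 and 73.1 TPM at 6 h, a rise of 2.67 with desflurane but of 0.17 with sevoflurane, and its call (adjusted p = 0.046) was lost in 9 of those 12 settings. In the insulin and IGF axis, 5 of 22 genes rose and 5 fell, and the calls of Igfbp1, Socs2 and Trib1 remained throughout. Trib1 and Igfbp2 rose by 1.68 and 1.52. Socs2 and Stat5a, which act in growth hormone signaling, fell by 1.69 and 1.11, and Igfals, which holds IGF in serum, by 0.88.

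Among 42 measured interferon-induced genes, 12 fell, none rose and 30 were not called (3.94% of all genes tested were lower), 37 had a negative change, and the median was -0.60. At an unadjusted p under 0.05, limma put 28 lower and 1 higher. Irf1, a transcription factor of the interferon response, went from 19.4 and 26.0 to 4.24 and 4.36 TPM (-2.15 ± 0.21). Igtp and Irgm, GTPases that act against intracellular microbes, fell from 59.9 and 77.9 to 18.2 and 12.3 TPM and from 17.2 and 15.6 to 2.94 and 3.85 TPM. These 3 calls remained with any library left out, and the other 9 did not. Mx2, an antiviral GTPase, had 31.1 and 23.2 TPM against 9.43 and 12.1 TPM, and Psmb9, a subunit of the immunoproteasome, 78.8 and 58.9 TPM against 28.1 and 37.6 TPM. Of 28 measured class I and II genes (RT1 symbols) of the rat major histocompatibility complex, none was called by limma, and 2 were lower at an unadjusted p under 0.05. The chemokine Cxcl12 fell by 0.56, the 1 call among 11 chemokines and receptors. Summed TPM of 6 NK and T cell markers was 8.14 and 6.36 at 0 h and 3.63 and 3.89 at 6 h. All 6 lay under the level needed for testing and none was at 0 in every library, and their part in the fall was not tested. In these bulk samples, fewer cells of a type and less RNA per cell cannot be told apart.

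The core of the interferon-stimulated response element, 2 copies of GAAA with 2 bases between them, was present on either strand in 2.80% of all promoters, in 58.8% of those of the interferon list (20 of 34), in 5.62% of those of the lower genes and in 1.95% of those of the higher genes. The list is known for this element, so its share describes the list rather than the change. Irgm (chr10:33742579-33742828, minus strand) and Igtp (chr10:42874797-42875046, plus strand) are shown as 2 strongly lower members with the element, in capitals, which began 34 and 103 bases before the start.
Irgm: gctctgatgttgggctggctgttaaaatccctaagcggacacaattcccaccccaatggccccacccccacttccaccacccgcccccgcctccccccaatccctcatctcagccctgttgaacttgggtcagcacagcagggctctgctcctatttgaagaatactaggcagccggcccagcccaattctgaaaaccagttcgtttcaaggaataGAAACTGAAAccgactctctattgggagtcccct
Igtp: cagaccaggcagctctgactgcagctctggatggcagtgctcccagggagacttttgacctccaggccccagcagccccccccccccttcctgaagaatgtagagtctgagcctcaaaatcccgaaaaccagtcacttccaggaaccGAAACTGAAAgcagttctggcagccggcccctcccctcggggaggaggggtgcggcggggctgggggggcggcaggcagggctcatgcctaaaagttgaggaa

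Stress programs split. None of 19 measured heat shock genes rose and 4 fell (median -0.41): Fkbp4, a cochaperone of steroid receptors, Hsph1, Hspb1 and Hsp90aa1 fell by 1.30, 1.04, 0.86 and 0.61, and the call of Fkbp4 remained throughout. Hsp90aa1 has close copies, so its value is uncertain. Both measured cold-induced RNA-binding genes rose, Rbm3 from 17.2 and 15.9 to 37.8 and 64.2 TPM (1.52 ± 0.21) and Cirbp from 8.69 and 9.10 to 20.2 and 24.8 TPM (1.24 ± 0.19), and each call was lost with a library left out. Among 29 genes of folding in the endoplasmic reticulum, 4 rose and 2 fell (13.8% and 6.90%, against 4.69% and 3.94% over all genes tested). Of these calls, those of Edem1 and Herpud1 remained throughout. Edem1 and Herpud1, which serve degradation, rose by 2.87 and 1.65, and the chaperone Hyou1 and Creld2 fell by 0.61 and 0.85. In the list of 25 NRF2 genes, which holds the gene of NRF2 itself (Nfe2l2), none rose and 4 fell, namely Osgin1, Nfe2l2, Gclm and Ugdh (median -0.25), and the call of Osgin1 remained throughout. Nfe2l2 had 78.6 and 62.6 TPM against 31.2 and 23.0 TPM (-1.35 ± 0.15). Of 19 p53 targets, Plk3, Gadd45a and Tp53inp1 rose, by 2.26, 1.96 and 1.84, and none of these calls remained throughout. At an unadjusted p under 0.05, limma put 0 heat shock genes higher and 8 lower, 1 NRF2 gene higher and 8 lower, and 6 p53 targets higher and 2 lower. Over all 8024 genes tested, 1599 reached that p in limma, both directions together. Bnip3, which marks mitochondria for removal, and Higd1a rose among 7 hypoxia genes, and P4ha1 fell by 1.10. In the ATF4 list, 3 of 19 genes rose (Slc38a2, Ppp1r15a and Trib3) and 4 fell, and the median was -0.63 with sevoflurane and 0.31 with desflurane. Only the call of Slc38a2 remained throughout.

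Most large families of general cell function held few calls. No cytosolic ribosomal protein of 89 measured and no oxidative phosphorylation subunit of 76 was called, with medians of -0.11 and -0.14 against -0.03 over all genes. The changes were small but mostly negative, in 82 of the 89 and 68 of the 76, against 4377 of 8024 over all genes. At an unadjusted p under 0.05 limma put 1 ribosomal protein higher and 5 lower, and 2 subunits lower. Of 70 mitochondrial ribosomal proteins, Mrps10 rose by 1.21 (1.43% higher, against 4.69% over all genes tested). Of 47 proteasome subunits, the interferon-induced Psmb8 and Psmb9 fell (4.26% lower, near the 3.94% over all genes tested). Among 34 ribosome biogenesis factors, 31 changes were positive, as were 3647 over all 8024 genes, and the median was 0.28 (0.49 with sevoflurane and 0.07 with desflurane), but Rrs1 alone passed the test (1.30 ± 0.21). Acute phase proteins gave 1 call in 22 (4.55% lower), fibrinogen gamma (Fgg), from 4103 and 4131 to 3126 and 3137 TPM. Among 43 genes of complement and coagulation, 3 fell (6.98%, against 3.94% over all genes tested) and none rose. They were Fgg again and the lectins Mbl1 and Mbl2, the lectins by 0.46 and 0.87, and no call of this list remained throughout. Of 18 measured iron regulation genes, Steap3 and Hjv fell by 1.03 and 0.71 (11.1% lower) and none rose. Neither call remained throughout. Among 31 autophagy and lysosome genes, 4 rose (12.9%, against 4.69% over all genes tested) and none fell. Of these calls only that of Bnip3 remained throughout. Map1lc3b, whose protein coats autophagosomes, went from 50.2 and 59.7 to 128 and 254 TPM. Ctsl, a lysosomal protease, rose by 0.90. Ccne1, a cyclin of the entry into S phase, rose from 0.600 and 0.289 to 4.31 and 6.16 TPM as the only call among 16 cell cycle genes.

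**Figure D4:**
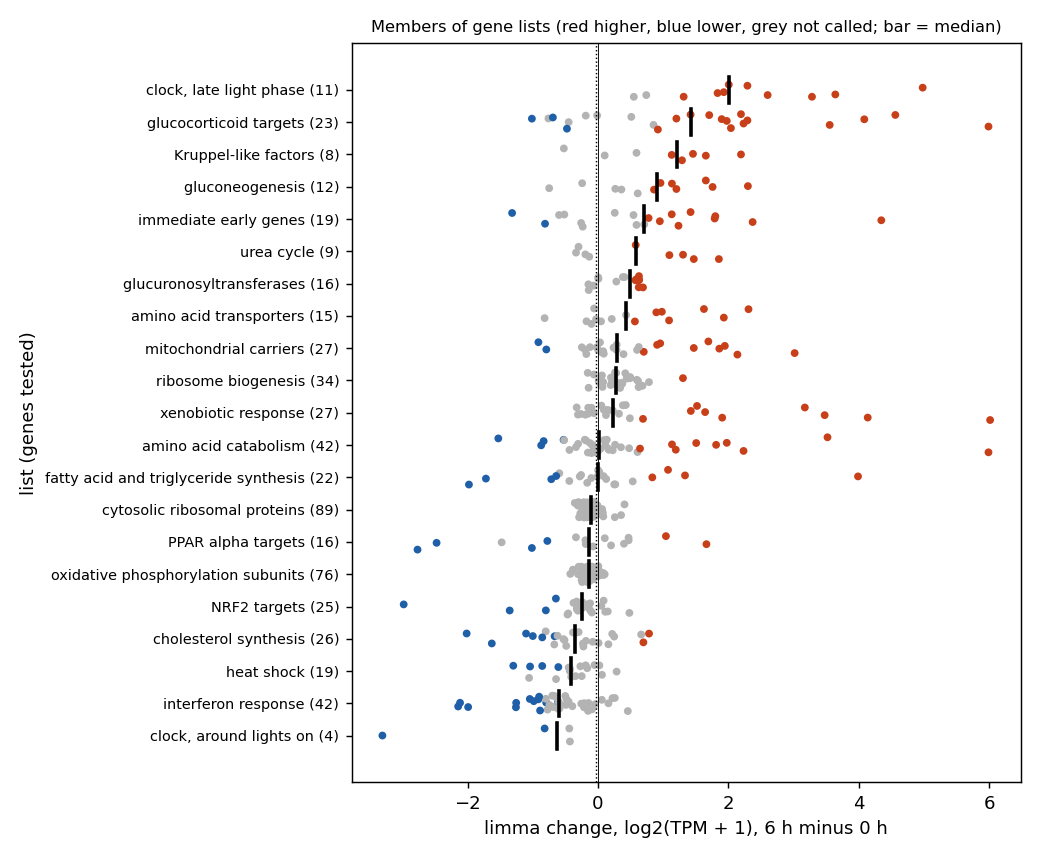
Change of each measured member of 21 gene lists in log2(TPM + 1), 6 h minus 0 h (x axis), with the number of members in brackets, red for higher, blue for lower and grey for not called; the black bar is the list median and the dotted line the median of all genes (-0.03). The late light clock list sits highest with a median of 2.01, and the interferon list (-0.60) and the lights-on clock list (-0.63) lowest.

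Of 16 genes that are higher near the portal vein, 5 rose and 2 fell (31.25% and 12.5%). Of 14 that are higher near the central vein, 7 rose and none fell (50% higher, median 0.42). Over all genes tested, 4.69% were higher and 3.94% lower. Several members that rose, such as Sds, Arg1, Ass1, Cps1, Pck1, Oat and Cyp2e1, were already counted in lists above. With each library left out in turn, 3 of the 7 periportal calls and 1 of the 7 pericentral calls (Oat) remained. The libraries carried liver RNA: the 5 hepatocyte markers summed to between 84990 and 95910 TPM, and albumin (Alb) held 57453 and 58867 TPM at 0 h and 55977 and 53282 TPM at 6 h, with no call. Rn7sl1, the RNA of the signal recognition particle and the most abundant named gene, held between 142450 and 161190 TPM with no call. None of the measured markers of Kupffer cells (6), sinusoidal endothelium (4), stellate cells (5) or bile duct (1) was called by limma, and none had an unadjusted p under 0.05. Neutrophil, B cell and platelet markers summed to at most 3.87 TPM in any library. Of the 5 hepatocyte markers, Apoa1 and Cps1 were called higher (0.60 and 0.58), and neither call remained throughout. Red blood cell markers had all 4 measured genes higher. Their summed TPM was 611 and 961 at 0 h and 1626 and 1807 at 6 h, and the alpha globin genes Hba1 and Hba-a2 share reads and had near-identical values. None of the 4 calls remained with every library left out, and the part of blood in other changes was not tested.

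**Figure D5:**
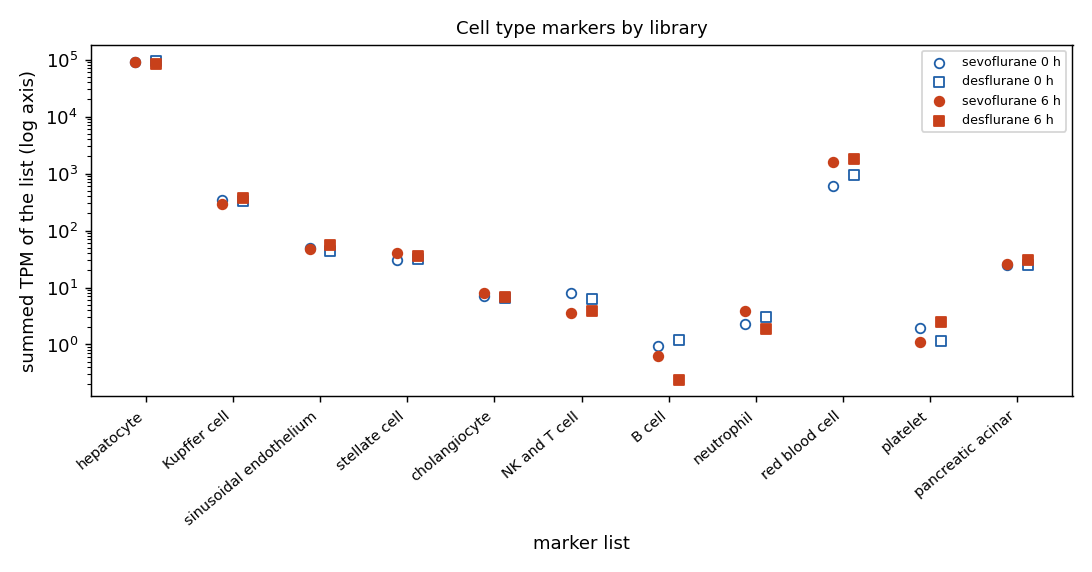
Summed TPM (log axis) of 11 cell type marker lists in each library, open symbols for 0 h and filled symbols for 6 h, circles for sevoflurane and squares for desflurane. Red blood cell sums are 1626 and 1807 TPM at 6 h against 611 and 961 TPM at 0 h, and NK and T cell sums 3.63 and 3.89 TPM against 8.14 and 6.36 TPM.

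Called genes stood beside each other in the genome in 68 of the 4873 pairs of tested neighbors within 100 kb. Both were higher in 35 pairs, both lower in 24 and opposite in 9. Rows touched in 11 of the higher and 2 of the lower pairs. Of all genes tested 8.62% were called, and whether called genes lie closer together than others was not tested. Of the higher pairs, 7 are Ugt1a genes, and pairs such as Hba-a2 and Hba1 or Cyp4a2 and Cyp4a3 can share reads, so the pairs are not independent. Mt1 and Mt2A lie 4959 bases apart and both rose. Stat5b and Stat5a lie 9910 bases apart and fell by 0.83 and 1.11, and Psmb9 and Tap1, 457 bases apart, fell by 1.05 and 0.90. Opposite changes stood side by side for Mat1a, which rose by 1.81, and Mbl1, 27019 bases away, which fell by 0.46. Pairs were listed for closeness alone, and those named were picked after their values were seen.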

How the data were processed

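Total RNA of rat liver kept in RNAlater was extracted (RNeasy Midi) and turned into strand-specific libraries (TruSeq Stranded Total RNA). The submitters' processing notes name HISAT2, SAMtools, StringTie and the build rn6, without versions. From these the authors deposited a StringTie gene table per library with TPM, FPKM and coverage. The deposited TPM column was handled as a score, because TPM of assembled loci alone sums to the full total and named genes add to it. Deposited FPKM and deposited coverage (a signal per base, not scaled for depth) were used only to estimate aligned bases, as the median ratio of coverage to FPKM. A TPM of 2 corresponded to a coverage of 4.67 to 7.21. Read counts are not among the columns, and counting intervals are not given.

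Assembled loci without a gene name and rows spanning 200 bases or fewer were left out, and rows of one gene were summed. Genes averaging at least 2 TPM were tested on log2(TPM + 1) with limma 3.58.1 in R 4.3.3 (empirical Bayes with a trend, agent as a block, two-sided, Benjamini-Hochberg adjustment over the 8024 genes). One residual degree of freedom was left and the prior held 10.9. The replicate number in the comparison is the agent (1 for sevoflurane, 2 for desflurane), so the block pairs libraries by agent. With 2 libraries a side an exact permutation test cannot reach the threshold, and none was run. The fit was tested on simulated data for this comparison over 7900 genes: it found 86.9% of 2-fold and 100% of 4-fold changes, with 9 false calls. The simulated noise had each gene's moderated spread and no effect of agent or of agent by time. These figures therefore need not hold for the real libraries. The 69 gene lists are described by counts and medians, without a set test. Members, lists and tests were chosen with earlier results of these data known. Genes were named by rule: the 12 lowest p and the 12 widest gaps between groups in each direction, up to 6 called members of each list by p (or the lowest p where none was called), defining markers, and the most abundant genes, Rn7sl1 and Alb. Named genes outside it are marked, and a few genes within it are not reported here. Symbols of 7951 tested genes were found in RefSeq. Alternatives in scaling, pseudocount, filters, model and libraries are given at the end.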

Additional observations from a re-analysis of the deposited data

Results flagged for a closer look

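The deposited tables also list loci that were assembled from the reads and carry no gene name, which no comparison above used. Their number was 24896 in the sevoflurane 6 h library and 23380 in the desflurane 6 h library, both above the controls (22303 for sevoflurane and 22889 for desflurane). The sevoflurane control also had the fewest aligned bases, 3.50 Gb, and the part of depth in these numbers was not tested.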

How the results depend on the processing

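The limma counts of 376 higher and 316 lower genes stayed within 1.5 times under other pseudocounts, scalings, row filters, a mean TPM of at least 1 or 5, robust moderation and an adjusted p under 0.1, where they lay between 309 and 469 and between 231 and 443. Without a filter on low values, 19 genes were higher and 6 lower. Moderation without a trend gave 170 lower genes (270 higher), and the fit without the replicate block 204 lower (284 higher). Leaving out each library in turn, with no block and with the lone library assumed to vary like the others, gave 106 to 317 higher and 57 to 274 lower genes. The rule of groups 2-fold apart (123 and 58) gave 150 to 216 higher and 90 to 147 lower with a library left out, because fewer libraries have to stand apart, and 50 and 24 at 3-fold. The block and moderation settings do not apply to it. Of 194 called genes that are named, 68 stayed past the threshold with each library left out and 113 in every other setting but the one without a filter, and none changed direction. Calls depended on level: the median standard error was 0.241 in the lowest of 3 equal bins by TPM, which held 112 calls, and 0.159 in the highest bin, which held 397.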

Other observations

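Further families are given as values and were chosen after their values were seen. Of 10 measured tubulins, 5 fell and none rose (median -0.62). Besides Tubb2a these were Tuba4a, which went from 50.9 and 52.1 to 17.1 and 7.59 TPM (-2.07 ± 0.23), and Tubb2b, Tubb4b and Tuba1b, which fell by 1.91, 1.07 and 0.61. Tubb2a and Tubb2b lie 48458 bases apart and are close copies, so reads may have been shared. Of the 4 Id proteins, which block helix-loop-helix factors, Id2, Id3 and Id4 fell, and Id1 had a change of 0.50 ± 0.26. Id4 was at 39.5 and 32.5 TPM at 0 h and at 8.85 and 3.92 TPM at 6 h.

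Pnpla2, the triglyceride lipase of lipid droplets, rose from 8.94 and 10.6 to 27.1 and 55.4 TPM (1.89 ± 0.21), while G0s2, its inhibitor, fell from 281 and 172 to 57.0 and 60.5 TPM (-1.89 ± 0.17) and Abhd5, its activator, fell by 0.96. In the pyruvate dehydrogenase complex 3 of 9 measured genes rose and none fell. The phosphatase subunit Pdp2 went from 11.8 and 10.9 to 32.7 and 48.2 TPM, and the kinase Pdk4 had 12.6 and 8.55 TPM against 5.23 and 15.0 TPM, with opposite directions in the agents and no call. Nfkbia, the inhibitor of NF-kappaB, rose from 16.3 and 27.9 to 50.8 and 76.6 TPM. The linker histones H1f0 and H1f4 rose by 1.08 and 1.21 among 4 measured. Of the 692 called genes, 228 stood in at least 1 of the 69 lists.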
